A study of Mus musculus with 22 samples.

Results

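G protein gamma subunits are small proteins that pair tightly with a beta subunit, and the beta-gamma dimer and the alpha subunit together form the heterotrimeric G protein that a receptor activates. After activation the alpha subunit and the dimer part, and both act on effectors such as adenylyl cyclases, phospholipases C and GIRK potassium channels. Each cell type uses some gamma subunits more than others, and particular ones are known for particular signalling routes, such as Gng7 with the striatal alpha subunit Golf, and Gng13 in taste cells, olfactory sensory neurons and retinal ON bipolar cells. Here 10 gamma subunit genes (Gng2, Gng3, Gng4, Gng5, Gng7, Gng8, Gng10, Gng11, Gng12 and Gng13) are described out of 20129 genes with a RefSeq-named probe. They were chosen by the sagittal values of Gng13, which had stood out in these same data. Sagittal values of the family are therefore given as a description, with no test of sagittal position. The coronal and horizontal tests were fitted over all 22 arrays, so the sagittal values still enter the error of those tests. Where a gene had more than 1 probe, the brightest by its median was read. That probe was well above background on 22 of 22 arrays for every one of the 10.

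RNA was taken from fractions of whole brains of 3 male C57BL/6J mice, with 1 mouse for each section plane, and measured by Transcriptome Tomography, in which a brain is cut serially along one axis and the slices are pooled. The coronal series had 10 fractions, the horizontal series 6 and the sagittal series 6, and each fraction was hybridised once to an Agilent 1-colour array, so no value has a replicate and animal and section plane cannot be told apart. The sample titles give an age of 7 days after birth, whereas the age field of the labels gives 3 days. The labels do not name the end at which fraction 1 lies, so positions are fraction numbers. Sagittal fraction 6 pooled slabs 7 to 9, sagittal fraction 1 slabs 1 to 2 and coronal fraction 10 slabs 10 to 11. Levels are log2 intensities relative to the 75th percentile of the array, and a probe's level is compared only with itself. In bulk tissue fewer cells of a type and less RNA per cell cannot be told apart.

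The slope of the added spike-in RNAs was outside the accepted range on 7 arrays, which were coronal fractions 1 and 2, horizontal fractions 1 to 3, and sagittal fractions 1 and 3. Coronal fraction 2 also lay alone on its slide, and sagittal fraction 6 had the lowest 75th percentile of intensity, 259.68 against up to 603.89 elsewhere. Levels of none of the 10 members separated the 7 arrays from the other 15. The share of all probes that did so is not given, and overlap does not show that levels were unaffected by array quality. In the horizontal series the 3 arrays out of range were at one end, so array quality and position cannot be told apart there.

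Promoter sequence helps to identify the genes on which the results turn. RefSeq (GRCm38.p6) gave promoter windows for 9 of the 10 members, and the 250 bases before the start are printed for both starts of Gng13, for Gng10, whose levels ran most like those of Gng13 within the family, and for the more GC-rich start of Gng7, which changed most along the coronal axis. Capitals mark the letters GGGCGG (the GC box) and CCCNNGGG (the core of the EBF motif), searched on both strands. Copies may overlap, as they do in both Gng13 windows. The array was designed on another build, so its probes were not placed on these sequences.
Gng13 first start, chr17:25716922-25717171, + strand: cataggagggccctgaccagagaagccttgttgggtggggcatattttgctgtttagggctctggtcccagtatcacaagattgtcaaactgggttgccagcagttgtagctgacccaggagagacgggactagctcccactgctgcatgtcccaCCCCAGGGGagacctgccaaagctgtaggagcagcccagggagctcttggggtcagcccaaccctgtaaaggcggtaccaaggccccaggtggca
Gng13 second start, chr17:25717278-25717527, + strand: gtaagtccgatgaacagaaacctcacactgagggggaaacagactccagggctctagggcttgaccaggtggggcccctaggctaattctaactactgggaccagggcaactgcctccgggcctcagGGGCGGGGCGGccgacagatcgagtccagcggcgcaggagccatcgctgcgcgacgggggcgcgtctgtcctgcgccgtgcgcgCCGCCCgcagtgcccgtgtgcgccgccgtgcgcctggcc
Gng10, chr4:59034906-59035155, + strand: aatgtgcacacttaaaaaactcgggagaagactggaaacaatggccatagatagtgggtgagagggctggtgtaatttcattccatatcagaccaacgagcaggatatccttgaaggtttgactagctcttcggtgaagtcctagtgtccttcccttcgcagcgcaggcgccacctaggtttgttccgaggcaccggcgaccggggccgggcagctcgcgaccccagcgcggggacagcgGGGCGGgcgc
Gng7, chr10:81014926-81015175, - strand: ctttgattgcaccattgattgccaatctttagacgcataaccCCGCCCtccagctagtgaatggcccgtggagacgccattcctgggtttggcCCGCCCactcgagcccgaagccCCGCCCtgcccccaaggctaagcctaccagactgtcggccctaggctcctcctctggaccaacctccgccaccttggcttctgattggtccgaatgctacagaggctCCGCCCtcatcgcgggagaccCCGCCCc
The first Gng13 window held 2 overlapping matches to the EBF core and no GC box, and the second held 3 GC boxes and no EBF core. Across all 32851 windows of this length, 11.8% held the EBF core and 32.7% the GC box. The Gng7 window held 5 GC boxes and the Gng10 window 1. The letters TATAAA were in none of the 4 windows, against 12.4% of all windows. The GC content was 58.8% and 69.2% in the Gng13 windows, with 2 and 25 CpG dinucleotides. It was 62.8% in the Gng7 window and 58% in the Gng10 window, and the median over all windows was 52.4%.

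**Figure D1:**
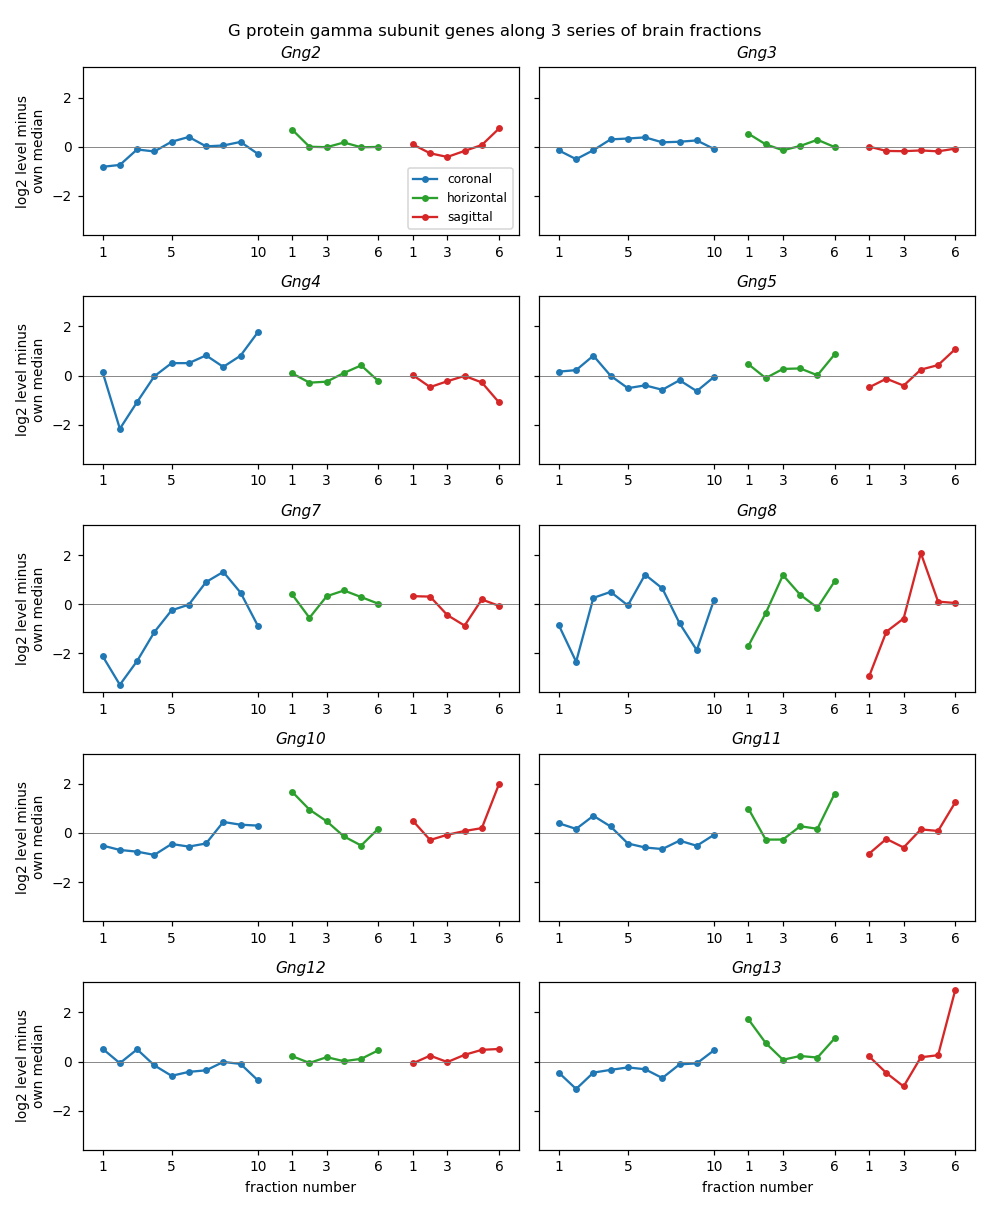
Level of each gamma subunit gene by fraction number, as log2 minus the gene's own median over 22 arrays, with 1 point per array and colours for the 3 series. Gng7 climbed from coronal fraction 2, its lowest, to fraction 8, and Gng13 reached its highest value, 7.26 on the log2 scale, in sagittal fraction 6.

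Along the coronal axis 4 of the 10 members passed the limma F test for position (adjusted p under 0.05 over 39621 probes), Gng7, Gng2, Gng10 and Gng4, where 19.8% of all probes tested passed. The fit used a curve through all 22 arrays, so its error is the scatter of single arrays around smooth curves and not that between animals. The fitted curves spanned a median of 1.09 log2 units for the 10 members and 0.99 for all probes.

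Gng7, the gamma subunit known as a partner of Golf in striatal neurons, had the largest fitted range of the 10. Its log2 levels in coronal fractions 1 to 10 were 1.68, 0.51, 1.48, 2.66, 3.54, 3.77, 4.69, 5.11, 4.27 and 2.92. Fractions 7 to 9 were highest and fractions 1 to 3 lowest, a span of 24.2-fold between fractions 2 and 8. The fitted range was 3.80 with a residual SD of 0.70, and the adjusted p was 0.00519. The 7 coronal arrays of slide 1 alone gave an adjusted p of 0.0365, and the fit without coronal fraction 2 gave 0.0202. The other Gng7 probe ran with it along this axis (r = 0.82 over 10 fractions) but was highest in fraction 10. Along the horizontal series Gng7 lay between 3.24 and 4.35, with an adjusted p of 0.977, and along the sagittal series between 2.92 in fraction 4 and 4.12 in fraction 1.

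Gng2, a widely expressed brain gamma subunit, moved less. Its coronal levels were 3.79, 3.87, 4.50, 4.42, 4.81, 5.01, 4.62, 4.66, 4.80 and 4.32 in fractions 1 to 10. The low end was fractions 1 and 2, the fold between lowest and highest was 2.32, and the adjusted p was 0.00603 (fitted range 1.11, residual SD 0.17). Both low fractions were arrays with a spike-in slope out of range. With the 15 arrays in range alone the adjusted p was 0.251, and within slide 1 it was 0.0877.

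Gng10 is broadly expressed in many tissues. Its coronal levels were 2.34, 2.16, 2.09, 1.96, 2.40, 2.30, 2.43, 3.30, 3.19 and 3.15. Fractions 8 to 10 all lay above the highest of fractions 1 to 7, and the adjusted p was 0.0118 (fitted range 1.27, residual SD 0.25). Fraction 8 was on slide 1 and fractions 9 and 10 on slide 3, and with slide as a random block the adjusted p was 0.0366. Within slide 1 it was 0.0893, and with the arrays in range alone 0.0534.

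Gng4 is a gamma subunit of neurons. Its coronal levels ran 0.52, -1.79, -0.70, 0.35, 0.89, 0.89, 1.20, 0.73, 1.19 and 2.14. The last fraction was highest and fraction 2 lowest, 15.2-fold apart, with a fitted range of 2.55, a residual SD of 0.62 and an adjusted p of 0.0245. Without coronal fraction 10 the adjusted p was 0.0799, and without coronal fraction 2 it was 0.0350. Within slide 1, which lacks fractions 2, 9 and 10, it was 0.453. Markers of the olfactory bulb summed to 102.3 in coronal fraction 10, on a linear scale relative to the 75th percentile, against 4.01 to 15.8 in the other coronal fractions, with 6 of 8 at their highest there, and their part in the Gng4 value was not tested.

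The other 6 members did not pass the coronal test, though 4 of them passed under some alternatives. Gng13, the gamma subunit of taste and olfactory signalling, ran 3.88, 3.22, 3.89, 4.00, 4.10, 4.02, 3.67, 4.22, 4.26 and 4.79, lowest in fraction 2 and highest in fraction 10, with an adjusted p of 0.0682. Gng3, which is found mainly in neurons, spanned 6.22 in fraction 2 to 7.11 in fraction 6 (adjusted p = 0.0580). Gng11, known from endothelial and other non-neuronal cells, spanned 2.83 in fraction 7 to 4.18 in fraction 3 (adjusted p = 0.0693). In limma Gng13 passed with only probes well above background on all arrays (adjusted p = 0.0419) and with the spike-in covariate (0.0475). Gng11 passed in both of these (0.0421 and 0.0382), with quantile normalisation (0.0265) and with the arrays in slope range (0.0329). Gng3 passed with quantile normalisation (0.0271), normexp background (0.0287), probes well above background on all arrays (0.0364), trend and robust variances (0.0386), and without coronal fraction 1 (0.0139) or horizontal fraction 6 (0.0401).

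Gng5, which most cells express, was lowest in fraction 9 at 5.07 and highest in fraction 3 at 6.51, with an adjusted p of 0.120. Gng12, a gamma subunit also found in glia, lay between 1.15 in fraction 10 and 2.42 in fraction 1, with an adjusted p of 0.0860. Its other probe had the same highest and lowest coronal fractions and passed, with an adjusted p of 0.0169. The probe used passed with quantile normalisation (0.0460) and without coronal fraction 8 (0.0463). Gng8, known from the olfactory and vomeronasal epithelium and from the habenula, ranged from -2.53 in fraction 2 to 1.01 in fraction 6 with a residual SD of 1.03 (adjusted p = 0.373). Fraction 9 was also low, at -2.07.

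Along the horizontal axis 3 of 10 members passed, Gng10, Gng13 and Gng11, where 6.57% of all probes did. All 3 had their highest or second highest value in fraction 1. Without horizontal fraction 1 none of the 10 passed in limma, and 0.0227% of all probes passed (9 of 39621). In that fit 2 of the 10 had an unadjusted p under 0.05, as did 13787 of the 39621 probes. With only the arrays whose spike-in slope was in range, which leaves horizontal fractions 4 to 6, none passed. There 0.0328% of all probes passed (13 of 39621), and 1 of the 10 and 2297 of all probes had an unadjusted p under 0.05. Calls were thus lost over the whole array under both settings.

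Gng13 levels in horizontal fractions 1 to 6 were 6.05, 5.09, 4.41, 4.56, 4.50 and 5.28. Both ends were above the middle, 3.12-fold between fractions 1 and 3, with a fitted range of 1.67, a residual SD of 0.29 and an adjusted p of 0.0338. The call was lost without any 1 of the 6 horizontal fractions (adjusted p up to 0.181) and without sagittal fraction 6 (0.0507). It was kept in 7 of 13 other alternatives and lost with median centring (0.107), quantile normalisation (0.0551), no scaling (0.296), the arrays in slope range (0.946), a linear term only (0.460) and the series alone (0.181).

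Gng10 levels were 4.52, 3.80, 3.33, 2.71, 2.34 and 3.03 in the same order. They fell from fraction 1 to fraction 5, 4.54-fold, with a fitted range of 1.96 and an adjusted p of 0.0115. Without horizontal fraction 1 the adjusted p was 0.0863, and with the spike-in signal as a covariate it was 0.0950.

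In horizontal fraction 1, where Gng13 and Gng10 were highest, neutrophil markers summed to 9.45 against 2.54 to 5.91 in fractions 2 to 6, with 4 of 8 at their highest there. Cortex markers summed to 21.9 against 8.14 to 20.3 (5 of 6), thalamus markers to 17.3 against 8.92 to 14.1 (1 of 6) and neuron markers to 844 against 438 to 749 (2 of 6). Progenitor and glial markers summed to 468 against 330 to 459 (1 of 8), and skeletal muscle markers to 3.35 against 2.38 to 2.93 (3 of 6). Other lists were lowest in horizontal fraction 1. Olfactory sensory neuron markers summed to 1.18 against 1.25 to 2.98, and olfactory bulb markers to 3.92 against 4.70 to 21.3. Purkinje cell markers summed to 12.6 against 14.7 to 56.3, granule cell markers to 22.4 against 35.5 to 95.3, and oligodendrocyte markers to 12.6 against 16.1 to 246. The part of all these cells in the Gng13 and Gng10 values was not tested.

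Gng11 levels were 4.47, 3.21, 3.21, 3.76, 3.65 and 5.08. Fractions 6 and 1 were highest, 3.66-fold between fractions 6 and 2, with a fitted range of 1.82 and an adjusted p of 0.0368. The call was lost in 8 of 22 fits that each left out 1 fraction, with an adjusted p of up to 0.190 without horizontal fraction 6. It was kept in 6 of 13 other alternatives and lost with median centring (0.0622), no scaling (0.170), no filter on dim probes (0.0511), the spike-in covariate (0.103), the arrays in slope range (0.393), a linear term only (0.382) and the series alone (0.181). Endothelial markers summed to 62.0 in horizontal fraction 6 against 30.4 to 48.3 in the other 5, with 4 of 7 at their highest there. They were also high in sagittal fraction 6. In horizontal fraction 6 hypothalamus markers summed to 98.3 against 3.84 to 29.1 (5 of 7). Peripheral ganglion markers there summed to 10.09 against 2.57 to 6.94 (3 of 6). Neuron and cortex markers were lowest in that fraction, at 438 against 478 to 844 and at 8.14 against 11.7 to 21.9. The part of all these cells in the Gng11 values was not tested.

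The remaining 7 members did not pass along this axis. Gng2 lay between 4.59 and 4.78 in fractions 2 to 6 and at 5.30 in fraction 1 (adjusted p = 0.143). Gng8 lay at -1.88 in fraction 1 and 0.99 in fraction 3 (adjusted p = 0.302). The adjusted p was 0.316 for Gng3, 0.358 for Gng5, 0.593 for Gng12, 0.977 for Gng7 and 0.987 for Gng4.

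In the sagittal series Gng13 was highest in fraction 6. Its log2 levels in fractions 1 to 6 were 4.55, 3.87, 3.32, 4.51, 4.59 and 7.26. The value in fraction 6 was 2.75 above the median of fractions 1 to 5, which is 6.71-fold, and it was outside their whole range. Of 16691 named genes in the main set, 42 (0.252%) differed by as much or more in that direction. These values led to the choice of the family and are given without a test.

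The paralogues did not all share this pattern. Gng10 followed at 3.35, 2.57, 2.78, 2.93, 3.05 and 4.85 in fractions 1 to 6, so fraction 6 was 1.92 above the median of the others (3.77-fold). Gng11 ran 2.64, 3.24, 2.89, 3.63, 3.56 and 4.73, a difference of 1.49. Gng5 ran 5.23, 5.58, 5.29, 5.95, 6.13 and 6.78, a difference of 1.21. In all 3 genes, as in Gng13, fraction 6 exceeded every other sagittal fraction.

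Gng2 ran 4.70, 4.34, 4.19, 4.44, 4.68 and 5.35, which puts fraction 6 at 0.91 above the median of the rest. Gng12 was also highest in fraction 6, by 0.27, but its other probe was lowest there, by -0.97, so the Gng12 probes disagree in direction. Gng3 differed by 0.09 and stayed within 0.19 over the whole sagittal series. Gng7 differed by -0.26, but its other probe differed by 0.32, and the Gng7 probes had an r of 0.33 over the 6 sagittal fractions. Gng4 differed by -0.87 and was, by the probes used, the one member at its lowest in fraction 6. Gng8 was highest in fraction 4 at 1.89 and lowest in fraction 1 at -3.13, 32.3-fold apart, and fraction 6 at -0.14 lay inside that range.

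By the probes used, 6 of the 10 members were at their highest in sagittal fraction 6, Gng12 among them, as were 33.2% of all named genes. The number stayed at 6 with normexp background, where 43.8% of named genes were highest in that fraction. It was 5 with median centring (28.2% of named genes) or with quantile normalisation (26.8%) and 3 with no scaling (Gng10, Gng11 and Gng13, against 4.76%). The median difference over all named genes was 0.02, and without scaling it was -0.97. The difference of Gng13 was 2.80 with median centring, 2.61 with normexp background, 1.96 with quantile normalisation and 1.88 without scaling.

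**Figure D2:**
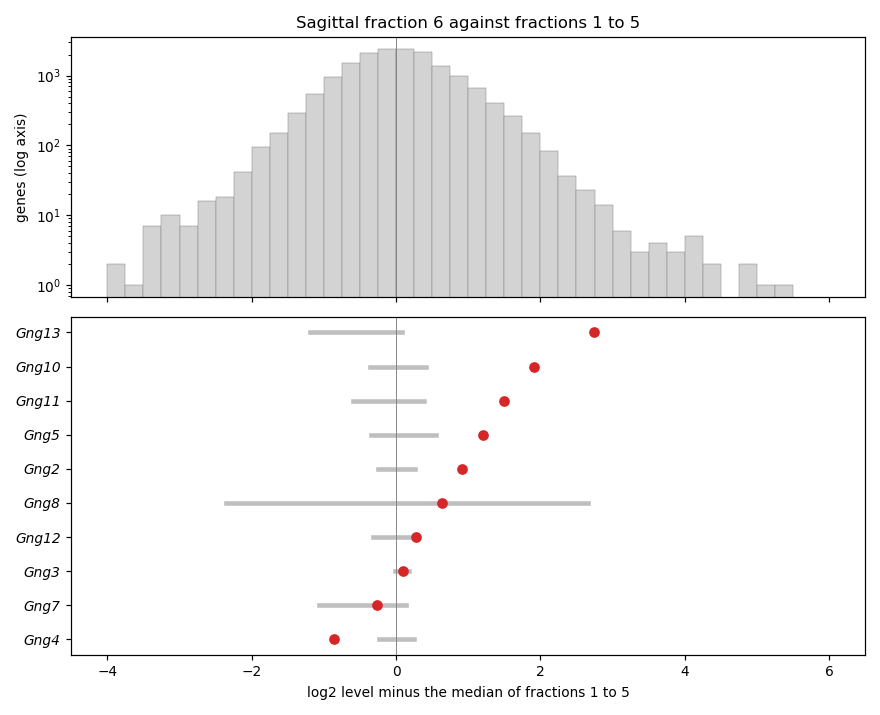
Top, number of named genes (log axis) by the log2 difference of sagittal fraction 6 from the median of fractions 1 to 5. Bottom, the same difference for the 10 members (red points) with the range of fractions 1 to 5 (grey bars). Gng13 lies at 2.75, Gng10 at 1.92 and Gng4 at -0.87, while Gng8 lies inside the range of its other fractions.

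Other gene families also stood high in that fraction, and these families were chosen after their values were seen. Ribosomal protein genes had a median difference of 1.46 (70 of 71 higher), NADH dehydrogenase subunits of 1.29 (33 of 36) and cytochrome c oxidase subunits of 1.24 (17 of 17). In horizontal fraction 1, where Gng13 was 1.49 above the median of the other horizontal fractions, the same families had median differences of 0.85, 0.57 and 0.67. In horizontal fraction 6, where Gng13 was 0.72 above the others, they had 0.37, 0.40 and 0.37. In coronal fraction 10, where Gng13 was 0.80 above the others, they had 0.22, 0.08 and 0.15, and 9 of 17 cytochrome c oxidase subunits were higher. In sagittal fraction 1, where Gng13 was 0.03 above the others, they had -0.37, -0.41 and -0.29. Over 22 arrays, which share slides and scaling, Pearson's r with the mean of the ribosomal protein genes was 0.84 for Gng13, 0.86 for Gng5, 0.82 for Gng11, 0.72 for Gng10, 0.60 for Gng12, 0.44 for Gng2, 0.06 for Gng8, -0.06 for Gng3 and for Gng7, and -0.35 for Gng4.

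Marker lists of other cells were read in the same fraction as sums of linear levels. Neutrophil markers summed to 19.2 in sagittal fraction 6 against 1.45 to 3.57 in fractions 1 to 5, and 8 of 8 were at their highest there. Endothelial markers summed to 59.5 against 24.5 to 31.4, with 5 of 7 at their highest there. Progenitor and glial markers summed to 540 against 269 to 415, with 4 of 8 at their highest there. Purkinje cell markers summed to 56.6 against 14.1 to 48.8, with 2 of 8 at their highest, and skeletal muscle markers to 3.20 against 2.10 to 3.08, with 1 of 6. The sums for granule cells, cortex, thalamus, hypothalamus, hindbrain, neurons, oligodendrocytes, peripheral ganglia and hair cells lay inside the range of fractions 1 to 5. The part of these cells in the Gng13 value was not tested.

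Markers of taste and olfactory cells were read in the same way. Taste and tuft cell markers summed to 1.03 in sagittal fraction 6 against 0.317 to 0.585 in sagittal fractions 1 to 5. Of these markers 2 of 5 were at their highest there, and Trpm5 and Tas1r2 were not well above background in that fraction. Olfactory sensory neuron markers summed to 1.70 against 1.47 to 2.88, and Stoml3 and Rtp1 were not well above background in any sagittal fraction. Olfactory bulb markers were lowest in sagittal fraction 6, 4.79 against 6.60 or more in the others. In coronal fraction 10, the highest of that series for Gng13, all 3 sums were at their highest along the axis. Olfactory sensory neuron markers summed to 6.48 there against 1.28 to 2.63 (2 of 10 at their highest). Taste and tuft cell markers summed to 0.666 against 0.274 to 0.469 (2 of 5), with Trpm5, Tas1r1 and Tas1r2 not well above background. Their part in the Gng13 values was not tested.

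**Figure D3:**
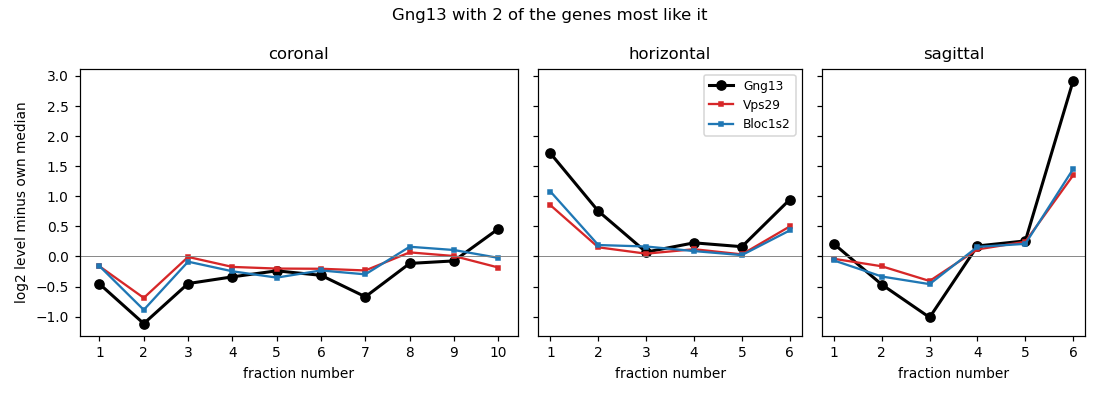
Gng13 (black) with Vps29 and Bloc1s2, as log2 level minus each gene's own median over 22 arrays, by fraction number in the 3 series. All 3 genes peak in horizontal fraction 1 and sagittal fraction 6, where Gng13 deviates more (2.92) than Vps29 (1.35) and Bloc1s2 (1.45).

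Transcripts with a pattern like Gng13 were sought by Pearson's r over the 22 arrays, a description in which arrays share slides and array-wide differences. There were 725 probes with r above 0.85, 1.83% of the main set. The named genes with the highest r were Gm16381 (0.957), Vps29 (0.952), Bloc1s2 (0.952), Mien1 (0.952), Pkig (0.947), Nudt2 (0.945), Srp14 (0.940) and Coa5 (0.939). By series, r with Gng13 was 0.64 coronal, 0.96 horizontal and 0.99 sagittal for Vps29, and 0.77, 0.94 and 0.99 for Bloc1s2. Vps29 encodes a subunit of the retromer sorting complex, Bloc1s2 a subunit of the BLOC-1 and BORC complexes, Srp14 a part of the signal recognition particle and Pkig an inhibitor of protein kinase A. Over the 16 coronal and horizontal arrays the highest were Gm16381 (0.932), Pkig (0.928), Tma7 (0.919), Bloc1s2 (0.918) and Nudt2 (0.916), and 201 probes passed 0.85. Without sagittal fraction 6 the number was 128, so the size of this group rested on that array. Without horizontal fraction 1 it was 463, and without coronal fraction 3 it was 1124.

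Among the paralogues the numbers of such probes over 22 arrays were 720 for Gng5, 362 for Gng11, 145 for Gng10, 80 for Gng7, 68 for Gng2, 54 for Gng3, 33 for Gng4, 1 for Gng12 and 0 for Gng8. Those numbers are over all probes of the main set, and the nearest genes below are named genes with 1 probe each. Gng5 ran most like Lsm6 (0.972) and Trappc6a (0.968), and Gng11 most like Vamp8 (0.961) and Rnf130 (0.956). For Gng10 the nearest were Ap3s1 (0.945) and Ybx1 (0.922), and for Gng2 Anapc5 (0.929) and Aimp2 (0.913). Gng3 was nearest Ppp1r16a (0.927) and Fbxw9 (0.912), and Gng4 nearest Dlgap1 (0.908), a scaffold protein of the synapse, and Ampd2 (0.901). Among these named genes Gng12 was nearest Gas2 (0.847) and Dbndd2 (0.844). Gng8 was nearest Cibar2 (0.840) and Tcf7l2 (0.790), a transcription factor of the thalamus and habenula.

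Within the family the pairs with the highest r over 22 arrays were Gng5 with Gng11 (0.91), Gng10 with Gng13 (0.86), Gng5 with Gng12 (0.72) and Gng2 with Gng13 (0.71). Gng7 had its highest r with Gng2 (0.63), and Gng4 had an r of -0.54 with Gng5 and -0.58 with Gng12.

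**Figure D4:**
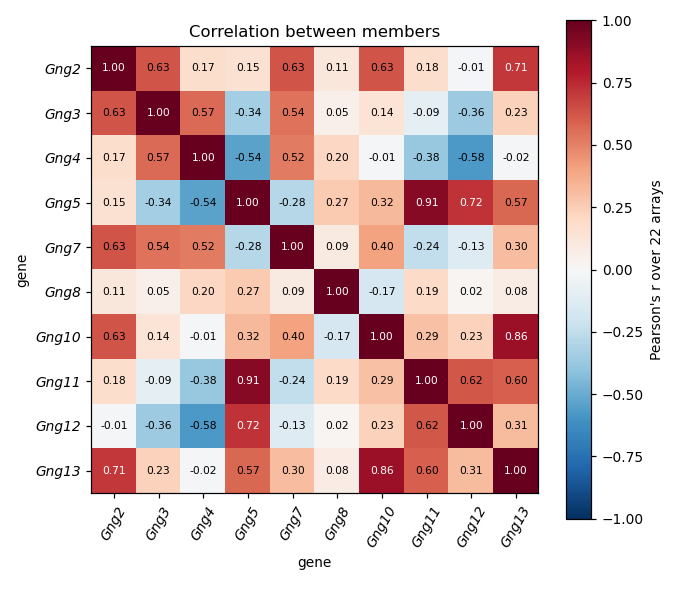
Pearson's r of log2 levels over 22 arrays for each pair of members (both axes list the 10 genes, colour and printed value give r). Gng5 with Gng11 and Gng10 with Gng13 have the highest values, 0.91 and 0.86.

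Gng7 ran like Ngef (r = 0.942), a guanine nucleotide exchange factor of neurons. Gnal, the alpha subunit Golf, stood at 0.928 over 22 arrays. Along the coronal series alone r with Gng7 was 0.98 for Gnal and 0.94 for Drd1, the dopamine D1 receptor, which was added after its values were seen. It was 0.39 for Gnal and 0.21 for Drd1 along the horizontal series, and 0.71 and 0.90 along the sagittal series, each over 6 fractions. Gnal went from 2.82 in coronal fraction 2 to 5.81 in fraction 8, and Drd1, whose probe was well above background on all 22 arrays, from -4.69 in fraction 3 to 0.48 in fraction 8.

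**Figure D5:**
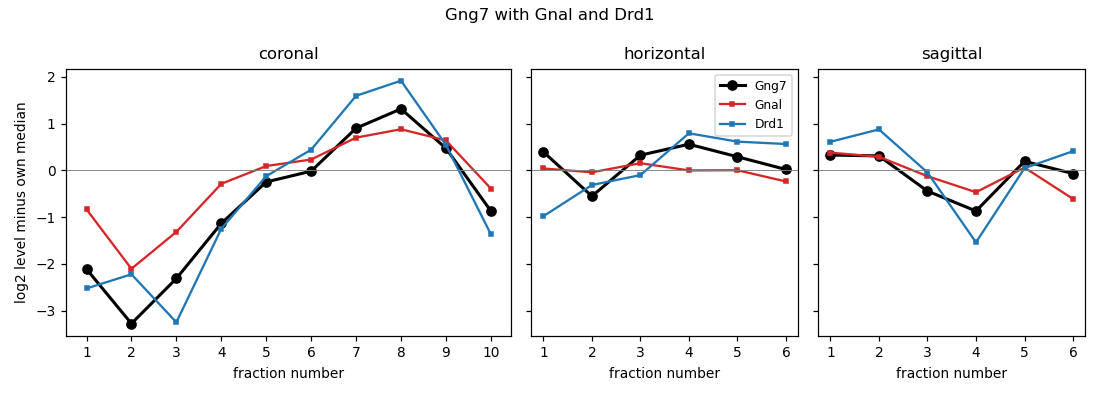
Gng7 (black) with Gnal and Drd1, as log2 level minus each gene's own median over 22 arrays, by fraction number in the 3 series. All 3 genes are highest in coronal fraction 8, where Gng7 reached 5.11 on its own scale.

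The other genes of the pathway were read from lists of beta and alpha subunits, effectors and regulators. Along the coronal axis 25 of 53 tested genes passed, where 19.8% of all probes did. These were 3 of 5 beta subunits, 9 of 15 alpha subunits, 6 of 19 effectors, 7 of 13 regulators and 0 of 1 other gamma gene (Gngt2, adjusted p = 0.317). The lowest adjusted p-values belonged to Rgs6 (0.00106), a regulator that speeds GTP hydrolysis, Plcb1 (0.00306), a phospholipase C, and the alpha subunits Gnao1 (0.00327), Gnai1 (0.00737), Gnaq (0.00975) and Gnal (0.0109). All 6 were lowest in coronal fraction 2, the array alone on its slide. Their highest fraction was 9 for Rgs6, Plcb1 and Gnai1, 6 for Gnao1, 5 for Gnaq and 8 for Gnal. Without coronal fraction 2 the number passing was 14, without coronal fraction 6 it was 16, and with the arrays in slope range alone it was 12, while the share of all probes fell to 12.8%, 12.3% and 10.4%.

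Along the horizontal axis 3 of 53 passed, where 6.57% of all probes did. They were Ric8b (0.0129), a chaperone of alpha subunits, Gna13 (0.0261) and the adenylyl cyclase Adcy4 (0.0458). Ric8b and Gna13 were lowest in fraction 1 and highest in fraction 4, and Adcy4 was highest in fraction 6. Among the 5 beta subunits the lowest adjusted p was 0.107, for Gnb3. Rgs7bp anchors RGS proteins at the membrane. It was the one pathway gene whose levels separated the 7 arrays out of slope range (7.04 to 8.94) from the other 15 (2.14 to 6.35). The share of all probes that separated them is not given. Rgs7bp passed the limma test along neither axis (adjusted p of 0.0810 and 0.0996).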

How the data were processed

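Fractions of 3 brains were grouped by the section plane in the labels. Per the file headers, the authors extracted linear processed intensity with Feature Extraction 10.10.1.1 from arrays designed on mm9, and they deposited a table of log2 values, of which 99.899% lay within 0.02 of the log2 processed value after subtracting each array's 75th percentile. Here control and outlier spots were left out, spots of 1 probe averaged and the same scaling applied. Of 55600 probes, 39621 were well above background in at least 1 fraction of each series and were tested. limma 3.58.1 (R 4.3.3) fitted series intercepts with linear and quadratic position terms over 22 arrays (13 residual degrees of freedom, median residual SD 0.376), with Benjamini-Hochberg adjustment. The test was checked on simulated data. The number of arrays limits the precision. Symbols matched 26553 of 28087 RefSeq probes. Normexp (offset 50) used the median signal in place of the planned mean signal, and the median background. Named were all 10 members, up to 6 passing pathway genes per series, and the genes most like each member, of which 1 is not reported here, nor are 2 marker lists. Members, lists and tests were chosen with earlier results of these data known. Alternatives covered scaling, background, filters, spike-in, slide, curve, variance model, probe and left-out fractions. Python 3.11.15, numpy 2.4.6, scipy 1.17.1, pandas 2.3.3 and matplotlib 3.10.9 were used.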

Additional observations from a re-analysis of the deposited data

Results flagged for a closer look

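In each coronal group of 10 fractions and horizontal group of 6, a highest or lowest value was marked where its gap to the nearest value, divided by the range, passed Dixon's 95% critical value (0.466 for 10 and 0.625 for 6). Sagittal values were left out, since they led to the choice of the genes. Of 20 groups, 1 was marked, and chance marks about 1 in 20 groups. Gng2 in horizontal fraction 1 was at 5.30 against 4.59 to 4.78 in the other 5, on an array whose spike-in slope was out of range. Fractions lie in order along an axis and are not replicates, so a marked value stands for one position measured once.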

How the results depend on the processing

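No paired analysis was possible because fraction numbers mark positions along different axes in different mice. The count of members past the coronal threshold, 4, became 7 with quantile normalisation (16.8% of all probes passed) and 7 with only probes well above background on all arrays (32.8%). It became 2 with no scaling (12.9%), 2 with a linear term only (7.12%) and 1 within slide 1 (Gng7, 10.14%). Leaving out 1 fraction gave 3 to 5. In the coronal series alone in limma the count was 0 (1.60%). There 7 of 10 members and 11093 of 39621 probes had an unadjusted p under 0.05. The count along the horizontal axis, 3, became 1 with median centring (Gng10, 3.09% of all probes), 1 with no scaling (Gng10, 5.82%), 1 with the spike-in covariate (Gng13, 0.255%), and 0 with arrays in slope range, with a linear term only and in the series alone (1, 1 and 3 unadjusted). Under these last settings 0.0328%, 0.520% and 0 of all probes passed, with 2297, 14718 and 10614 of 39621 unadjusted. With the settings as reported 19.8% of all probes passed along the coronal axis and 6.57% along the horizontal axis. Leaving out 1 fraction gave 0 to 3. Without horizontal fraction 2, 3, 5 or 6, or sagittal fraction 6, Gng10 alone passed, while 1.44%, 2.83%, 1.01%, 2.81% and 3.24% of all probes did.

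The coronal pathway count, 25, became 10 with the spike-in covariate (11.4% of all probes), 12 with arrays in slope range (10.4%), 14 with a linear term only, 2 in the series alone and 4 within slide 1 (shares as above), with 14 to 30 when 1 fraction was left out. The horizontal pathway count, 3, became 1 with median centring, 7 with quantile normalisation (8.14%), 7 with probes well above background on all arrays (16.1%), 6 with slide as a random block (11.3%), 6 with trend and robust variances (9.08%), and 0 with the spike-in covariate, arrays in slope range, a linear term only and the series alone (7, 6, 16 and 15 unadjusted). Under these last settings 6146, 2297, 14718 and 10614 of all 39621 probes were unadjusted calls, in the same order. Leaving out 1 fraction gave a horizontal pathway count of 0 to 7. The 0 came without horizontal fraction 1, with 14 of 53 genes and 13787 of 39621 probes unadjusted. The Gng13 difference in sagittal fraction 6 became 1.96 with quantile normalisation and 1.88 with no scaling, and 2.73 to 3.07 with 1 other sagittal fraction left out. The number of probes like Gng13 became 171 with quantile normalisation, 65 with no scaling, 1438 at r above 0.80, 184 at r above 0.90 and 201 on 16 arrays, and 128 to 1124 with 1 fraction left out. The coronal call of Gng7 held in 22 of 22 fits without 1 fraction and in 14 of 15 other alternatives, and the exception was the series alone. The causes were not tested. All members were well above background on all arrays.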
